A study of Homo sapiens with 6 samples.

Results

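The genes described here are AXIN2, LGR5, ASCL2, NKD1, RNF43, ZNRF3, SP5, TCF7, LEF1 and MYC, a set of Wnt/beta-catenin target and TCF genes. They were taken as the rows of the count table whose Ensembl identifier maps to one of these symbols, which gave 10 of the 60240 genes listed. RNA-seq was done on HCT116, a human colorectal carcinoma cell line, with 3 libraries from wild-type cells (WT) and 3 from cells lacking the histone H3K4 demethylase LSD1 (LSD1 KO), whose gene is KDM1A. The KO cells were made with CRISPR/Cas9 and a guide against the first exon of LSD1, were selected with puromycin and were expanded from single clones. The number of clones behind the 3 LSD1 KO libraries is not given in the sources used here, so the knockout and the clone cannot be told apart. The study's methods state in general that its experiments had biological replicates, and the sources used here do not describe how the 3 libraries of a group were grown, so the tests measure the spread between these libraries.

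In Wnt signaling, a secreted ligand binds a Frizzled receptor and its LRP co-receptor, the complex that marks beta-catenin for destruction is held back, and beta-catenin enters the nucleus and binds TCF/LEF factors on target genes. Several targets encode inhibitors of the pathway, and the mRNA of target genes is widely used as a readout of signaling in the intestinal epithelium. HCT116 is known to carry a CTNNB1 allele whose beta-catenin lacks a serine needed for its destruction, and the LSD1 KO cells were made from this line. Counts per gene hold no sequence, so that allele was not examined in these libraries.

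TCF/LEF factors bind a short motif, and the promoter sequences of the set are shown for the windows in which it was found. The motif was searched as CTTTGAA or CTTTGAT, or as CTTTGTA or CTTTGTT, on both strands. The windows ran from 250 bases before to 50 bases after the start sites held in a RefSeq promoter collection (GRCh38.p14). SP5, LEF1, TCF7 and RNF43 had windows in that collection, 6 in all, and AXIN2, LGR5, ASCL2, NKD1, ZNRF3 and MYC are named only. The LEF1 window and the TCF7 windows lie inside these genes. They do not cover the outermost starts, at chr4:108168932 for LEF1 and chr5:134108218 for TCF7. The SP5 window held 3 matches, at 148, 109 and 84 bases before the start, and 1 of the TCF7 windows held 1 match, at 50 bases before the start. Of all 35116 windows, 13.8% held at least 1 match and 0.179% held 3 or more. The 250 bases upstream of the SP5 start and of the later TCF7 start searched are given 5′ to 3′ on the plus strand. Matches are in capitals, and TTCAAAG and AACAAAG are matches on the opposite strand. The stretches are chr2:170715087-170715336 for SP5 and chr5:134123368-134123617 for TCF7.
SP5: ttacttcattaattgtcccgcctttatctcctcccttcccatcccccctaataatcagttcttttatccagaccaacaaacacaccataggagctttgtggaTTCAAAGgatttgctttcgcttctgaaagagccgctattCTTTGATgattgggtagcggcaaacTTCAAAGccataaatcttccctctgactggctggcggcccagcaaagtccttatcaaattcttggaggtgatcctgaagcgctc
TCF7: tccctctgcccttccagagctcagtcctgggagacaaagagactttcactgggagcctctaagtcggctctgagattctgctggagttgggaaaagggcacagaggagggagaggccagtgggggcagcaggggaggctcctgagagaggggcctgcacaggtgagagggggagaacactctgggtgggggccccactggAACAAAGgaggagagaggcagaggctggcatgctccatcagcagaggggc
A match is a run of letters and not a measured binding site. No match was found in the other TCF7 window, in both RNF43 windows or in the LEF1 window. The outermost starts of TCF7 and LEF1 were not searched.

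The 6 libraries held between 25379279 and 29186963 counts. Levels are given as CPM, counts scaled to the TMM-adjusted library size, and a count of 3, taken as the floor for counting error, was worth 0.0994 to 0.114 CPM. KDM1A itself had 231.2, 224.4 and 213.7 CPM in WT replicates 1 to 3 and 29.9, 27.6 and 27.8 CPM in LSD1 KO replicates 1 to 3, a log2 fold change of -2.97 (SE 0.15, q value 0.000451, edgeR). Of 7 epithelial markers, 6 were above the floor in every library and the intestinal VIL1 was not, with sums of 2044 to 3820 CPM in WT and 2421 to 3160 CPM in LSD1 KO. Of 6 fibroblast markers, 5 were at or under the floor in every library, LUM and PDGFRA at 0 in all 6, and COL1A1 gave nearly the whole sum of 20.4 to 23.9 CPM in WT and 30.2 to 34.0 CPM in LSD1 KO. Of 5 leukocyte markers, CD3E was at 0 and PTPRC at or under the floor throughout, and the sums of 17.2 to 20.8 CPM in WT and 23.4 to 34.0 CPM in LSD1 KO came mostly from CD68. Of 3 endothelial markers listed, 2 were read, and their sums were under 1.5 CPM in every library. The 3 neural markers summed to 40.1 to 53.3 CPM in WT and 35.99 to 49.7 CPM in LSD1 KO, nearly all of it MBP. The part of these markers in the results was not tested.

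LSD1 KO was compared with WT to ask whether Wnt target expression differs between the groups. No gene of the set passed the test for a change. Of the 10 genes, 7 had enough counts to be tested, and 0 of 7 passed a q value of 0.1 with edgeR's quasi-likelihood test, where 0.00566% of the 17672 genes tested did (1 gene, KDM1A). At an unadjusted p of 0.05 the count was also 0, where 3.12% of all genes passed. Because libraries with the same replicate number deviated together, a second edgeR model held the number as a block. With the block 0 of 7 genes passed, where 1.6% of all genes did (282 genes), and 1 of 7, RNF43, passed at an unadjusted p of 0.05, a share near the 13.4% of all genes. DESeq2 called 0 of 7 without the block, where it called 0.376% of all genes, and 0 of 7 with it, where it called 4.21%. The log2 fold change was positive in 4 genes (AXIN2, NKD1, SP5 and MYC) and negative in 3 (RNF43, ZNRF3 and TCF7), with a median of 0.15, or 0.14 with the block, beside a median over all genes of 0.00082, or 0.0030 with the block. In bulk RNA, fewer cells that express a gene and less RNA per cell cannot be told apart. WT and LSD1 KO libraries did not overlap in 2 of 7 genes, AXIN2 and ZNRF3, where 7.74% of all tested genes did not overlap in one direction or the other. With 3 libraries in each group, the two-sided exact permutation test of 1 gene cannot give a p under 0.1.

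**Figure D1:**
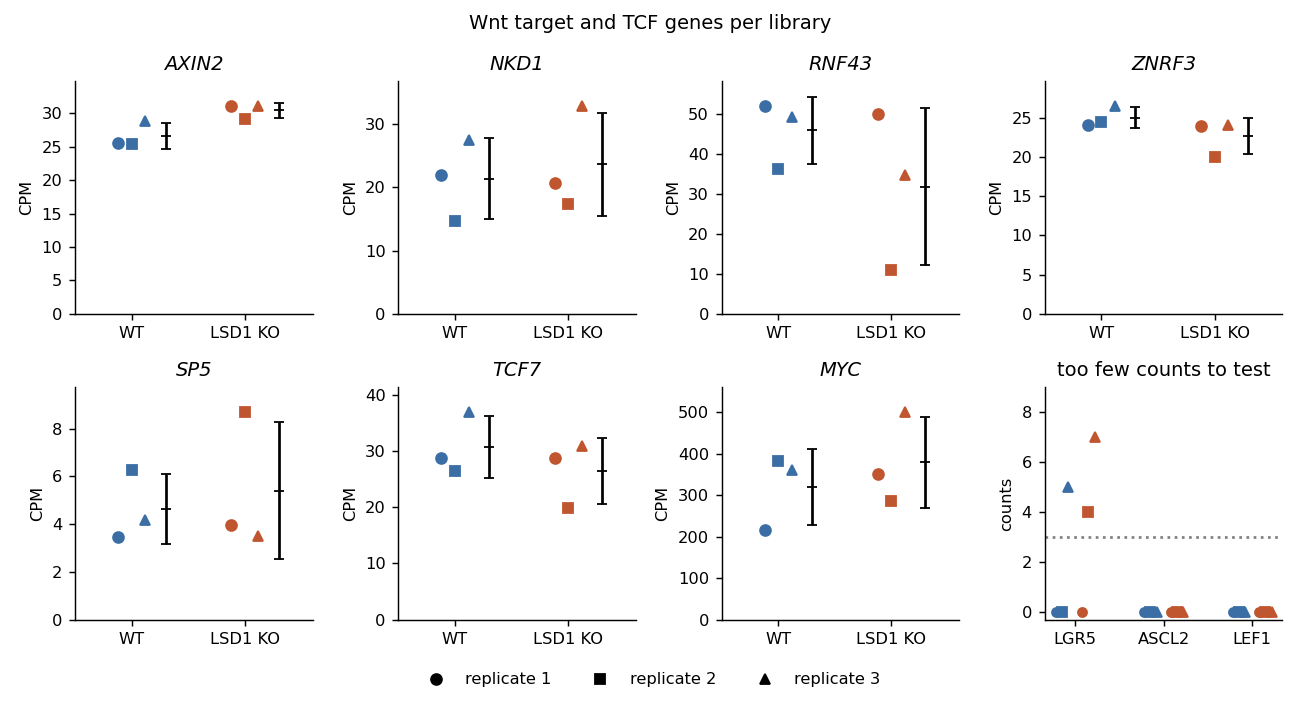
Level of each gene in CPM (linear axis from 0) in the WT (blue) and LSD1 KO (orange) libraries, with the replicate number as the symbol and the mean ± SD (n = 3) as the black bar. The last panel gives raw counts of the 3 genes with too few counts to test, with the floor of 3 counts as a dotted line. All LSD1 KO points lie above the WT points for AXIN2 and below them for ZNRF3, and the groups overlap in the other 5 tested genes.

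AXIN2 (ENSG00000168646, chr17:65528563-65561648) encodes a scaffold of the beta-catenin destruction complex and is a feedback target of the pathway. It had 25.5, 25.4 and 28.9 CPM in the WT replicates and 31.1, 29.1 and 31.1 CPM in the LSD1 KO replicates. Every LSD1 KO library lay above every WT library, by a narrow margin between WT replicate 3 and LSD1 KO replicate 2. The means were 26.6 ± 1.98 CPM and 30.5 ± 1.13 CPM (SD, n = 3), so that LSD1 KO stood at 114% of WT. The log2 fold change was 0.19 (SE 0.15, 95% interval -0.15 to 0.54, q value 1.00, edgeR), and 0.20 with the block (SE 0.10, interval -0.034 to 0.43, q value 0.447). It was higher in LSD1 KO in all 3 same-numbered pairs, by 0.28, 0.20 and 0.11, and the two-sided exact permutation p was 0.1, the smallest possible. On the fold scale the blocked interval ran from 0.977 to 1.34. In the GRCh37 annotation 25.3% of its exonic bases are shared with ENSG00000266076 on the same strand, which had 0 counts in 5 libraries and 10 in LSD1 KO replicate 3.

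NKD1 (ENSG00000140807, chr16:50548396-50649249) encodes a feedback inhibitor that binds Dishevelled. Its levels were 22.0, 14.7 and 27.5 CPM in WT and 20.7, 17.4 and 32.9 CPM in LSD1 KO. The groups overlapped, and in both of them replicate 2 was lowest and replicate 3 highest. The log2 fold change was 0.15 (SE 0.30, q value 1.00, edgeR), and with the block 0.14 (SE 0.12, interval -0.13 to 0.41, q value 0.657). The unblocked value turned negative without WT replicate 2 (-0.074) and without LSD1 KO replicate 3 (-0.17).

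RNF43 and ZNRF3 encode membrane ubiquitin ligases that remove Frizzled receptors from the cell surface. RNF43 (ENSG00000108375, chr17:58352500-58417534) had 52.0, 36.3 and 49.3 CPM in WT and 49.96, 10.9 and 34.6 CPM in LSD1 KO. LSD1 KO replicate 1 was within the WT range, and the other 2 LSD1 KO libraries were below all WT libraries. Its highest and lowest libraries differed 4.76-fold, the widest range among the 7 tested genes. The log2 fold change was -0.53 (SE 0.45, interval -1.56 to 0.50, q value 1.00, edgeR) and -0.73 with the block (SE 0.26, interval -1.33 to -0.12, q value 0.285). The pairs differed by -0.058, -1.73 and -0.51, and without LSD1 KO replicate 2 the unblocked log2 fold change was -0.13. Without the first pair the blocked value was -1.09 and passed the test (q value 0.0557, edgeR), as did 428 of 17835 genes there. Without the second or the third it was -0.30 (q value 0.219, edgeR) or -0.86 (q value 0.252). A same-strand gene that reads through into RNF43, ENSG00000285897, shares 68.4% of its exonic bases, whose counts were 61, 22 and 17 across the WT replicates and 49, 0 and 11 across those of LSD1 KO, so the division of reads between both genes is uncertain.

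ZNRF3 (ENSG00000183579, chr22:28883572-29057488) had 24.1, 24.5 and 26.6 CPM in WT and 24.0, 20.0 and 24.1 CPM in LSD1 KO. All 3 LSD1 KO libraries lay below all WT libraries, 2 of them by under 0.2 CPM. The means were 25.1 ± 1.31 CPM and 22.7 ± 2.30 CPM (SD, n = 3), with a log2 fold change of -0.14 (SE 0.16, q value 1.00, edgeR) and, with the block, -0.15 (SE 0.11, interval -0.40 to 0.10, q value 0.607). Without LSD1 KO replicate 2 the unblocked value was -0.080.

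SP5 (ENSG00000204335, chr2:170715337-170718078) encodes a zinc finger repressor that is a direct target of beta-catenin in many tissues, and its upstream bases carry the 3 motif matches shown above. Its levels were 3.48, 6.28 and 4.18 CPM in WT and 3.97, 8.69 and 3.52 CPM in LSD1 KO. Replicate 2 was the highest library in each group, and the groups overlapped. The log2 fold change was 0.22 (SE 0.41, q value 1.00, edgeR) and 0.15 with the block (SE 0.21, interval -0.33 to 0.63, q value 0.808). The direction rested on LSD1 KO replicate 2, without which the value was -0.33.

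TCF7 and LEF1 encode DNA-binding partners of beta-catenin and are themselves counted among its targets. TCF7 (ENSG00000081059, chr5:134108218-134148210) had 28.8, 26.5 and 36.9 CPM in WT and 28.8, 19.8 and 30.9 CPM in LSD1 KO. The groups overlapped, and only LSD1 KO replicate 2 lay below all WT libraries. The log2 fold change was -0.21 (SE 0.22, q value 1.00, edgeR) and -0.22 with the block (SE 0.11, interval -0.49 to 0.037, q value 0.446). The unblocked value was -0.062 without WT replicate 3 or LSD1 KO replicate 2, and -0.34 without LSD1 KO replicate 3. TCF7 has several start sites, of which the later ones give forms without the beta-catenin binding region, and counts per gene do not separate these forms. LEF1 (ENSG00000138795, chr4:108047548-108168932) had 0 counts in all 6 libraries.

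The makeup of the TCF/LEF family was therefore set side by side, on CPM per kb of the canonical transcript, as shares of the sum of the 4 genes. TCF7L2, the main family member of the colon epithelium, took 74.7 ± 2.56% in WT and 78.1 ± 1.55% in LSD1 KO (SD, n = 3; two-sided exact permutation p = 0.2). TCF7 took 14.2 ± 1.36% and 11.8 ± 2.41% (exact permutation p = 0.3), and TCF7L1 took 11.1 ± 1.91% and 10.1 ± 1.55% (exact permutation p = 0.5). In every library TCF7L2 was far above TCF7 and TCF7L1, and LEF1 was at 0. TCF7 was above TCF7L1 except in LSD1 KO replicate 2, where they took 9.05% and 11.35%. No difference in share between the groups passed a test, which with 3 libraries a group could not go below 0.1.

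**Figure D2:**
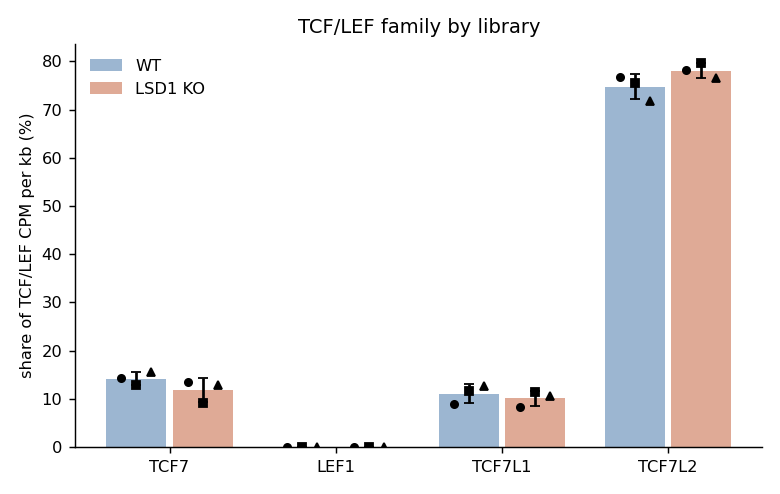
Share of each TCF/LEF gene in the summed CPM per kb of the 4 genes (percent, linear axis from 0) in WT (blue bars) and LSD1 KO (orange bars), as mean ± SD of 3 libraries, with each library as a black symbol (circle, square and triangle for replicates 1, 2 and 3). TCF7L2 holds 74.7% in WT and 78.1% in LSD1 KO, and LEF1 is at 0 in every library.

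MYC (ENSG00000136997), a transcription factor that drives growth and proliferation, was the most abundant gene of the set. It had 216.1, 382.8 and 359.4 CPM in WT and 350.6, 286.7 and 499.6 CPM in LSD1 KO. The groups overlapped, with the lowest library in WT and the highest in LSD1 KO. The means were 319.5 ± 90.2 CPM and 379.0 ± 109.3 CPM (SD, n = 3), with a log2 fold change of 0.25 (SE 0.28, q value 1.00, edgeR) and, with the block, 0.25 (SE 0.19, interval -0.18 to 0.69, q value 0.609). The pairs differed in sign, at 0.70, -0.42 and 0.48. The value rested on single libraries. Over all genes, 1055 of 18043 passed the blocked model without the second pair. Without a pair the blocked log2 fold change of MYC was 0.030 (first pair left out, q value 0.963, edgeR), 0.57 (the second, the pair of opposite sign, q value 0.000539) or 0.14 (the third, q value 0.989). Without the block it was 0.029 without WT replicate 1 and -0.0062 without LSD1 KO replicate 3.

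LGR5 and ASCL2, a receptor for R-spondins and a transcription factor, are the best known markers of the intestinal stem cell among the Wnt targets, and both were at or near 0. LGR5 (ENSG00000139292, chr12:71439129-71586310) was counted 0, 0 and 5 times across the WT replicates and 0, 4 and 7 times across the LSD1 KO replicates. ASCL2 (ENSG00000183734, chr11:2268498-2270588) had 0 counts in every library. A count of 0 allows a level of up to 0.0994 to 0.114 CPM, depending on the library. With these counts a difference between the groups was not detectable in LGR5, ASCL2 or LEF1, and no fold is given.

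**Figure D3:**
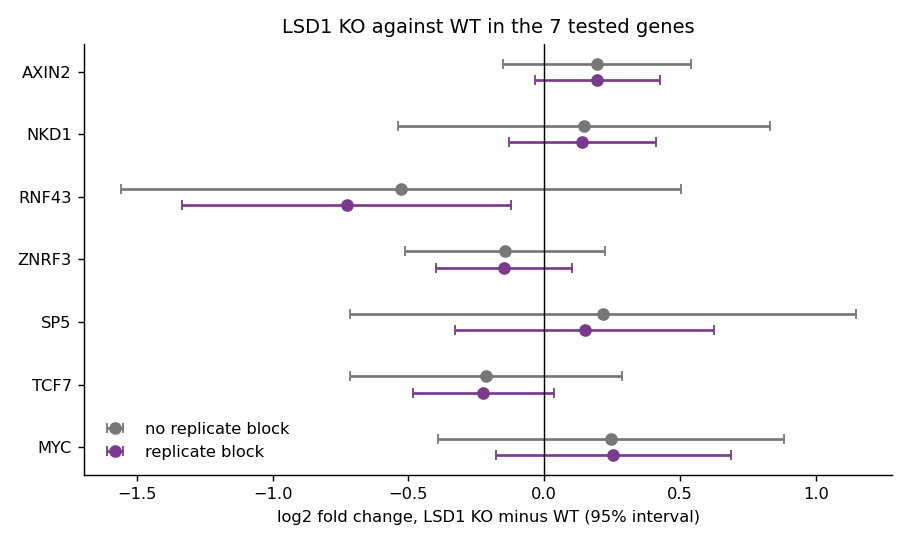
Log2 fold change of LSD1 KO over WT for the 7 tested genes with its 95% interval, from the edgeR model without the replicate block (grey) and with it (purple). The grey intervals all cross 0, and with the block RNF43 alone has an interval below 0 (-1.33 to -0.12), with a q value of 0.285.

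Per kb of transcript, which allows levels to be compared between genes, the order in WT was MYC, RNF43, TCF7, AXIN2, ZNRF3, SP5 and NKD1. MYC was at 85.9 ± 24.3 CPM per kb (SD, n = 3), the 95.7th percentile of 17459 tested genes of known length. RNF43 followed at 10.2 ± 1.86 CPM per kb, a ratio of 8.46. RNF43 and TCF7 (9.34 CPM per kb) did not differ beyond their spread, with overlapping ranges over the WT libraries. AXIN2 at 6.25 ± 0.464, ZNRF3 at 3.65, SP5 at 2.27 and NKD1 at 1.26 CPM per kb had ranges that did not overlap with those of their neighbors in the order, with ratios between 1.495 and 1.81. These 6 genes lay between the 27.4th percentile (NKD1) and the 64.4th (RNF43). The value of NKD1 depends on its long canonical transcript of 17.0 kb.

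More genes of the set passed the test between replicate numbers than between WT and LSD1 KO. In the blocked edgeR model, 4 of 7 genes differed between replicate numbers at a q value of 0.1, where 41.2% of all genes did (7273 genes), so the set was not far from the background. These were NKD1 (q value 0.00826), SP5 (0.0273), RNF43 (0.0442) and TCF7 (0.0446). AXIN2 (q value 0.627), ZNRF3 (0.511) and MYC (0.155) did not pass. Replicate 2 was the lowest library of each group in NKD1, RNF43 and TCF7, and the highest of each group in SP5. In RNF43 its log2 CPM deviated from the gene's mean over the 6 libraries by 0.063 in WT and by -1.66 in LSD1 KO. What a shared replicate number stands for is not given in the sources used here. The coefficient of variation within a group was lowest in AXIN2, at 7.43% in WT and 3.71% in LSD1 KO, and ZNRF3, at 5.21% and 10.1%, and highest in RNF43 in LSD1 KO at 61.7%.

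**Figure D4:**
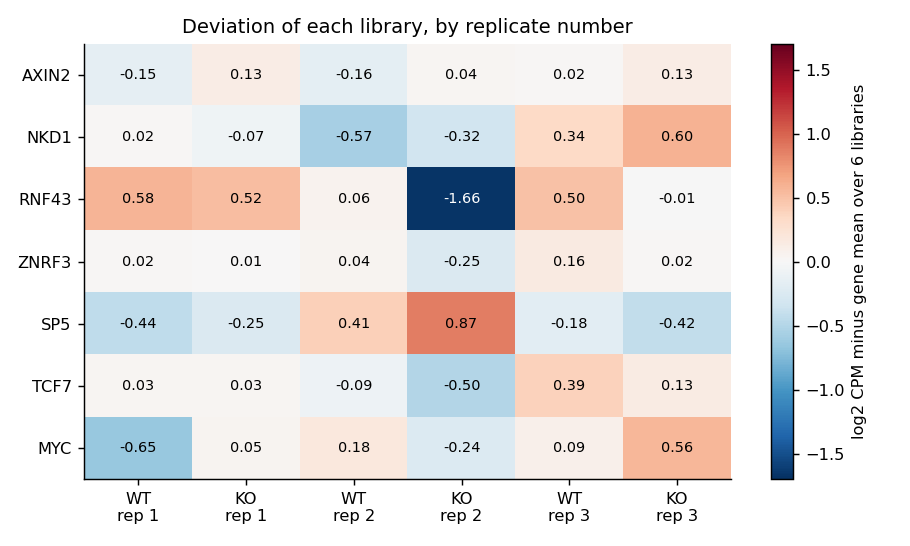
Log2 CPM of each tested gene in each library minus the gene's mean over the 6 libraries (color scale and printed values), with the libraries ordered by replicate number. NKD1 is below its mean in both replicate 2 libraries and SP5 above it in both, and the darkest cell is RNF43 in LSD1 KO replicate 2 at -1.66.

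Other genes of the pathway were read from 9 lists of ligands, receptors, complex members, cofactors, inhibitors, targets and MYC-related genes. Of 173 genes listed, 172 were matched and 140 tested, and 15 had 0 counts in all libraries. None passed edgeR's test without the block. There 10 of 140 had an unadjusted p under 0.05, beside 3.12% of all genes, and DESeq2 called 1 of 148 (MLXIPL, q value 0.0531), beside 0.376%. With the block 6 of 140 passed, 1 higher and 5 lower in LSD1 KO. Over all genes the block gave 1.05% higher and 0.549% lower (185 and 97 of 17672), and each count of a list given in the next paragraphs stands beside these shares. DESeq2 with the block called 13 of 131, 6 higher and 7 lower, beside 2.53% higher and 1.68% lower over all genes. WT and LSD1 KO libraries did not overlap in 5 genes higher and 6 lower of the 140, beside 7.74% of all tested genes in either direction. The lists were chosen with results known, and no test compared them with the other genes. All calls named in the next paragraphs are from the blocked edgeR model, and each of these genes had a q value of at least 0.453 without the block.

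Among ligands and genes of their secretion, 0 of 18 rose and 1 fell, with a median log2 fold change of -0.014. This was WNT16, a ligand, with 54.8, 80.5 and 74.4 CPM in WT and 30.0, 46.7 and 45.1 CPM in LSD1 KO. The groups did not overlap, and it fell by 0.79 on the log2 scale (SE 0.090, q value 0.0132, edgeR). Among receptors and Dishevelled genes 0 of 19 passed (median -0.055), and the 2 most abundant, DVL1 and PTK7, had log2 fold changes of -0.063 and -0.10. In the destruction complex 0 of 14 passed (median -0.0041), and all 14 values lay within 0.2 of 0. CTNNB1, the gene of beta-catenin, had 415.4, 370.4 and 328.5 CPM in WT and 398.6, 323.9 and 317.7 CPM in LSD1 KO, a log2 fold change of -0.10 (SE 0.084, q value 0.659, edgeR with the block). CSNK1A1, a kinase that primes beta-catenin, had 0.10. Among TCF partners and cofactors 0 of 17 passed (median 0.022), with 0.12 for TCF7L2 and -0.018 for TLE5.

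Of the secreted and intracellular inhibitors, 10 of 22 could be tested and none passed (median 0.055). DKK1, which blocks the LRP co-receptors, had 197.1, 442.8 and 344.1 CPM in WT and 88.2, 511.5 and 221.0 CPM in LSD1 KO. Its groups overlapped, with replicate 1 lowest and replicate 2 highest in both, and its log2 fold change was -0.53 (SE 0.22, q value 0.344, edgeR with the block). KREMEN1, a receptor for DKK proteins, had 0.19. Among 22 other reported targets 1 fell and 0 rose (median -0.0088). ENC1, which encodes an actin-binding protein, had 76.7, 81.2 and 96.1 CPM in WT and 53.8, 43.3 and 66.8 CPM in LSD1 KO. It fell by 0.65 (SE 0.11, q value 0.0381, edgeR), with no overlap between the groups.

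Among intestinal stem cell markers 2 of 9 fell and 0 rose (median -0.13). LRIG1, which encodes an inhibitor of ErbB receptors, had 8.69, 7.99 and 10.8 CPM in WT and 3.93, 5.56 and 5.19 CPM in LSD1 KO, and fell by 0.90 (SE 0.19, q value 0.0864, edgeR). SOX4, a transcription factor gene, had 111.3, 127.5 and 137.9 CPM in WT and 82.3, 44.8 and 85.9 CPM in LSD1 KO, and fell by 0.87 (SE 0.18, q value 0.0901, edgeR). Neither gene overlapped between the groups. Of the 6 epithelial markers that could be tested, EPCAM alone passed with the block, lower in LSD1 KO (log2 fold change -0.98, q value 0.0788, edgeR), while the summed level of that list in LSD1 KO lay within the WT range. COL1A1 was higher (0.52, q value 0.0628), and the 5 other fibroblast markers were at or under the floor. The part of either gene in the results was not tested. The call of LRIG1 was lost without the first pair (q value 0.162) and without the third (0.367), while that of SOX4 held without each pair but was not made by DESeq2 with the block (q value 0.114).

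Genes around MYC were read in 2 lists. In the family of MYC partners and antagonists 1 of 13 rose and 0 fell (median 0.052). MLXIPL, which encodes the carbohydrate response factor that pairs with MLX, had 37.4, 42.5 and 44.7 CPM in WT and 68.9, 72.0 and 67.6 CPM in LSD1 KO. It rose by 0.75 on the log2 scale (SE 0.096, q value 0.0181, edgeR), and all LSD1 KO libraries lay well above all WT libraries. Among 18 MYC target genes of ribosome biogenesis and metabolism 1 fell and 0 rose, and the median was -0.19, with 14 negative values with the block and 15 without. ODC1, the first enzyme of polyamine synthesis, had 603.9, 495.9 and 364.2 CPM in WT and 497.2, 309.5 and 266.8 CPM in LSD1 KO. Its groups overlapped, it was lower in each of the 3 pairs, and it fell by 0.47 (SE 0.10, q value 0.0922, edgeR), a call lost without the third pair (q value 0.335). MYC itself had a positive value, as given above, and no test compared it with its targets.

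**Figure D5:**
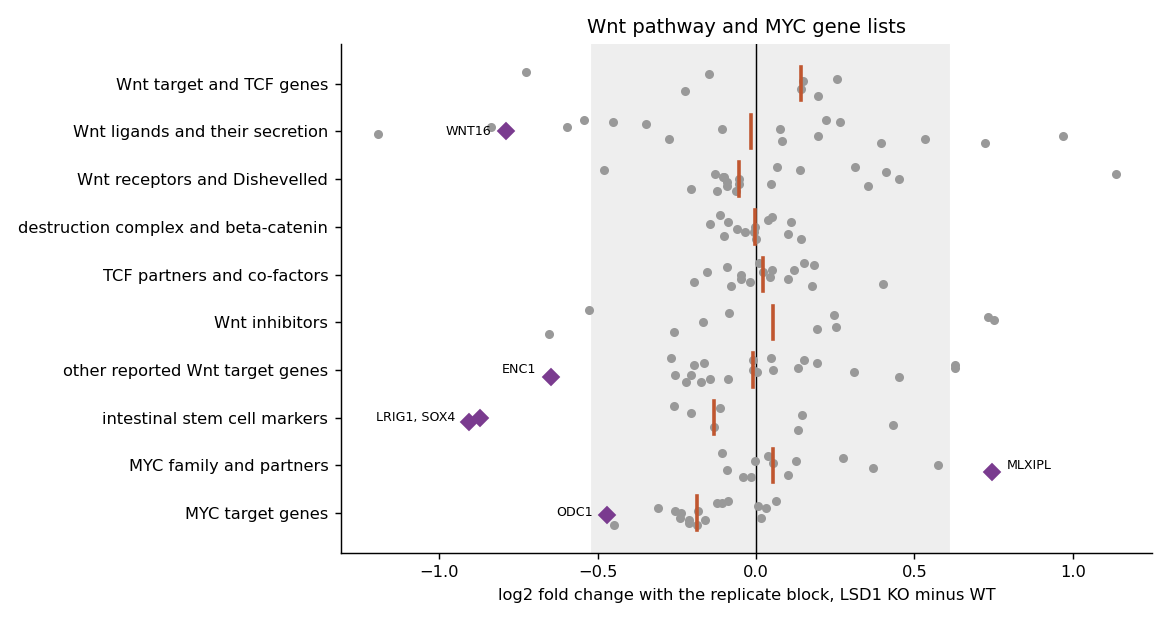
Log2 fold change of LSD1 KO over WT with the replicate block for each tested gene (points) of the Wnt target and TCF genes and of the 9 further lists, with the list's median as an orange line and genes with a q value under 0.1 as labelled purple diamonds. The grey band spans the 5th to the 95th percentile of all 17672 genes. The Wnt target and TCF genes hold no diamond, and RNF43 is their only point outside the band.

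The genes whose log2 CPM followed AXIN2 most closely over the 6 libraries were ADAM19 (Pearson's r 0.993), NFAM1 (0.990) and ENSG00000279203 (0.982). This is a description over 6 libraries that share 2 groups and 3 replicate numbers, picked as the highest values among all tested genes. ADAM19, a membrane metalloprotease gene, had 67.6, 72.2 and 105.4 CPM in WT and 128.7, 112.2 and 136.4 CPM in LSD1 KO. Like AXIN2, it had all LSD1 KO libraries above all WT libraries and WT replicate 3 above the other WT libraries. NFAM1 and ENSG00000279203 were under 1 CPM in every library, so their values rest on few counts.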

How the data were processed

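RNA-seq of 3 WT and 3 LSD1 KO HCT116 libraries was used. Per the submitters' processing notes, reads were checked with FastQC, trimmed with Trimmomatic 0.39 and quantified with Salmon 1.4.0. The authors deposited estimated counts per gene in whole numbers with no scaling between libraries, and the step from transcripts to genes is not given in the sources used here. Identifiers were matched to symbols for 58395 of 60240 genes. Counts were analysed with edgeR 4.0.16 in R 4.3.3 (TMM, filterByExpr, quasi-likelihood test, Benjamini-Hochberg adjustment over 17672 genes, q value under 0.1), and with DESeq2 1.42.0 as an alternative. The SE of a fold change was derived from its F statistic.

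The members and gene lists were chosen with earlier results of these data known. Besides the members, KDM1A and the 3 genes most correlated with AXIN2, the rule names from each list up to 4 genes with a q value under 0.1 (in the blocked model where none passed without it), or otherwise its 2 most abundant genes. Marker genes outside this rule were picked with their values known.

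Replicate numbers were checked by correlating deviations from group means over 17672 genes. WT and LSD1 KO libraries of the same number had r of 0.404 to 0.553, and others -0.516 to 0.0454. Deviations sum to 0 within a group, so these ranges are not independent of each other. The numbers were treated as pairs on this sign from the data. edgeR's common dispersion, as a coefficient of variation, was 0.28 in the model with no block and 0.13 in the blocked one. Transcript lengths and exonic overlap came from a GRCh37 annotation, and positions and promoters from RefSeq on GRCh38.p14. Counting floors cover counting error only. Figures were drawn with matplotlib 3.10.9 in Python 3.11.15.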

Additional observations from a re-analysis of the deposited data

How the results depend on the processing

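The number of genes called depended on the model. Over all genes edgeR called 1 without the block, 114 with every gene kept, 282 with the replicate block, and DESeq2 called 95, or 597 with the block. Leaving out 1 library gave 1 to 26 genes, the highest without LSD1 KO replicate 2. Leaving out pair 1, 2 or 3 from the blocked model gave 428 of 17835, 1055 of 18043 or 198 of 17686 genes. Of the pathway genes 0 passed without the block, 1 with DESeq2, 6 with the replicate block, 13 with DESeq2 and the block and 5 to 14 without 1 pair in the blocked model. The 7 tested Wnt genes gave 0 calls under every setting except the blocked model without the first pair (1, RNF43 lower) and without the second (1, MYC higher), a range of 0 to 1, and the block changed no call of theirs with all libraries in.

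The median log2 fold change of the 7 genes ran from -0.17 (without LSD1 KO replicate 3) to 0.18 over single libraries left out, with -0.074 without WT replicate 2 and -0.062 without LSD1 KO replicate 2, and from -0.046 (without replicate 2) to 0.082 in the blocked model without 1 pair. Direction turned in NKD1 (-0.074 without WT replicate 2 and -0.17 without LSD1 KO replicate 3, range to 0.37), SP5 (-0.33 without LSD1 KO replicate 2, range to 0.49, and -0.046 in the blocked model without replicate 2) and MYC (-0.0062 without LSD1 KO replicate 3, range to 0.39). AXIN2, RNF43, ZNRF3 and TCF7 kept their sign under all 15 alternatives. Other size factors and a minimum of 10 counts turned no direction. The cause of these shifts was not tested. KDM1A ranged from -3.01 to -2.95. LGR5, ASCL2 and LEF1 had too few counts for any comparison, and whether greater depth would count them was not tested.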
